A study of Rattus norvegicus with 6 samples.

Results

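The genes described here are the Nduf genes of rat liver, which encode subunits of respiratory complex I and factors that assemble it. They were taken as every protein-coding row of the count table whose symbol starts with Nduf and that held at least 10 counts in at least 3 libraries. The table of 20104 genes held 50 protein-coding Nduf rows, and 48 of them met the count rule. The lowest of them, the row Ndufs6, had 126 counts in its library of rank 3. Below the rule lay Ndufa4l2, with 8 counts in Quik-clot replicate 2, 1 in AKOC replicate 3 and 0 in the other libraries, and Ndufb11b, with 1 count in Quik-clot replicate 3, 2 in AKOC replicate 1 and 0 elsewhere. The 48 members comprised 37 structural subunits, 8 Ndufaf assembly factors and 3 rows of another kind.

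Total RNA was sequenced from repaired rat liver, taken 14 days after the organ was injured. The wound of 3 samples had been dressed with AKOC, an abbreviation that the labels leave unexplained in a series on kaolin anchored to cotton, and that of the other 3 with Quik-clot, a commercial haemostatic dressing used as the control. Both groups carried the same injury, and no liver without trauma was analysed here. Strain, sex, age and the number of animals behind a sample are not given in the labels, so p-values here reflect no more than the scatter of these samples, and that scatter may be technical. The comparison was made to ask how much lasting inflammation each dressing leaves. Total counts lay between 40402312 and 41455378 per library. Albumin, the main secreted product of hepatocytes, took 7.02% to 11.7% of counts. The bulk libraries cannot separate fewer cells of a type from less RNA per cell.

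Complex I is the entry point of electrons from NADH into the respiratory chain of the mitochondrial inner membrane. It oxidizes NADH in a peripheral arm that reaches into the matrix, passes the electrons along a row of iron-sulfur clusters to ubiquinone, and pumps protons through a membrane arm. Its parts are built as modules: the N module binds NADH and the flavin, the Q module reduces ubiquinone, and the proximal and distal membrane modules carry the proton pumps. The hydrophobic core of the membrane arm is encoded by the ND genes of mitochondrial DNA and everything else by nuclear genes. In the liver, NADH from fatty acid oxidation and the citrate cycle is its main substrate.

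Structural subunits were slightly more abundant in the AKOC libraries. The log2 fold change, AKOC over Quik-clot, was above 0 in 36 of the 37, against 48% of all 13872 genes tested, with a median of 0.25 (a level 19.1% higher) against -0.01 over all genes. No subunit passed the edgeR quasi-likelihood test after Benjamini-Hochberg adjustment over all genes: 0 of 37 were called higher and 0 lower, as were 0% of all genes in either direction, and the lowest adjusted p among them was 0.295. At an unadjusted p under 0.05, 11 of 37 were higher and 0 lower, against 6.78% and 5.69% of all genes. Levels in the 3 AKOC libraries lay wholly above those in the 3 Quik-clot libraries for 13 of 37, against 9.53% of all genes, and wholly below for 0, against 8.84%. With DESeq2, 1 of 37 was called higher (Ndufv1, adjusted p = 0.0359), against 1.39% of all genes, and limma-voom called 0. The members were selected with results of these data known, so their shared direction is given as a description.

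**Figure D1:**
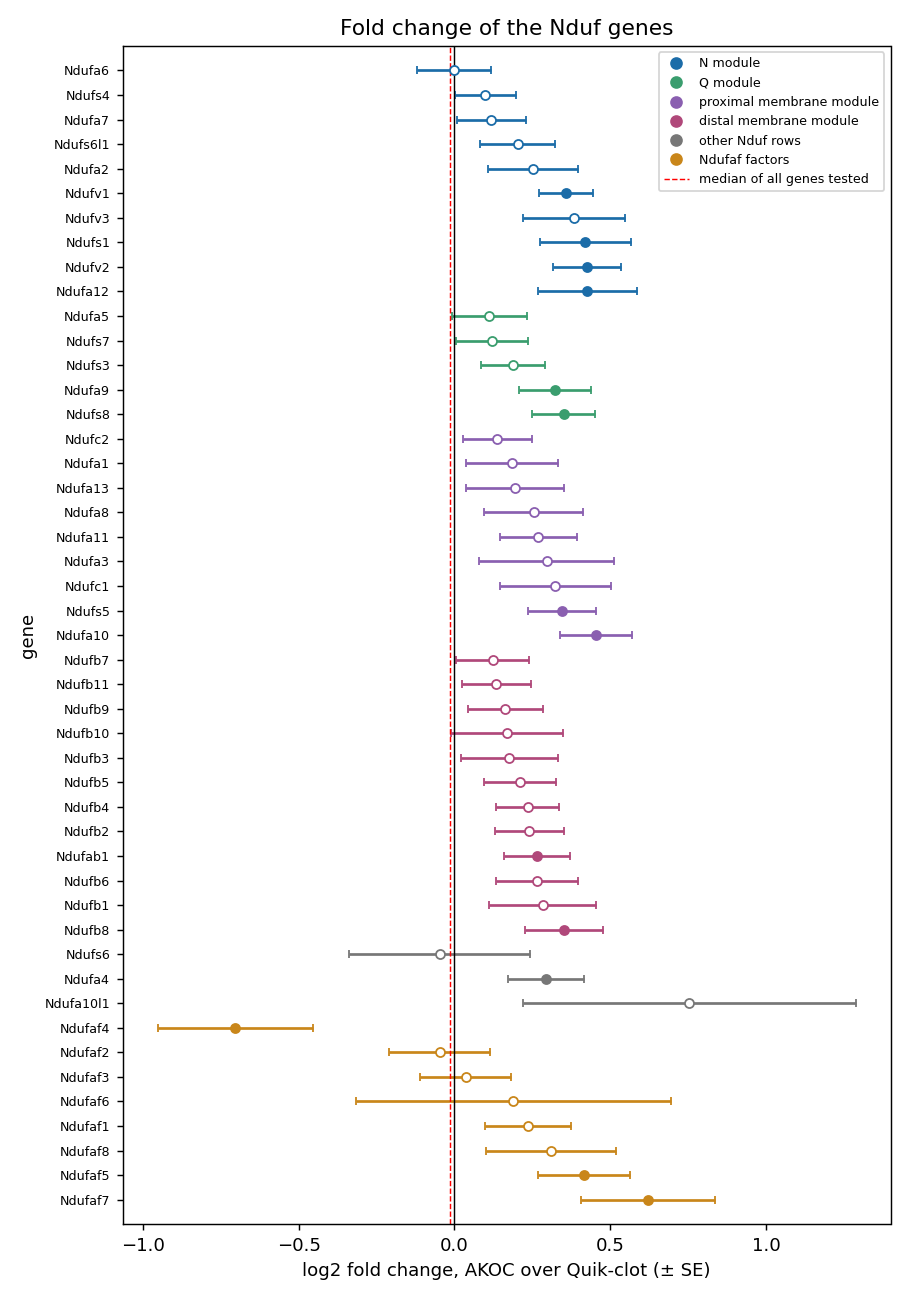
Log2 fold change (x axis, AKOC over Quik-clot, with its standard error as bars) of each Nduf gene shown by name (y axis), coloured by module or class; filled points have an unadjusted p under 0.05 and the dashed line is the median of all genes tested, -0.01. The structural subunits lie between -0.001 (Ndufa6) and 0.45 (Ndufa10), while the Ndufaf factors spread from -0.70 (Ndufaf4) to 0.62 (Ndufaf7).

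The 7 nuclear core subunits, those shared with the bacterial enzyme, carry the flavin, the iron-sulfur clusters and the ubiquinone site. The log2 fold change was above 0 in all 7 (median 0.36), and in 6 of the 7 the AKOC libraries lay wholly above, against 9.53% of all genes. The unit of level is CPM, in which each library's counts are put on one total, corrected by the trimmed mean of M values. Ndufv1, which binds NADH and the flavin, stood at 65.5, 63.9 and 66.3 CPM in Quik-clot replicates 1, 2 and 3 and at 83.4, 84.0 and 83.4 CPM in AKOC replicates 1, 2 and 3. In CPM the gap between the groups (65.2 ± 1.23 against 83.6 ± 0.358 CPM, mean ± SD, n = 3 each) was far wider than the spread within either. In FPKM, without that correction, Ndufv1 was less tight, at 46.5, 43.3 and 37.9 with Quik-clot and 56.9, 48.1 and 50.2 with AKOC. There AKOC replicate 2 lay just above Quik-clot replicate 1. Its log2 fold change was 0.36 ± 0.09 (SE), a level 28.2% higher, with an unadjusted p of 0.00424 and an adjusted p of 0.295 in edgeR.

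Ndufv2, its iron-sulfur partner in the N module, stood at 90.6, 95.6 and 83.4 CPM with Quik-clot against 111, 130 and 121 CPM with AKOC (log2 fold change 0.43 ± 0.11). Ndufs1, the largest subunit of the peripheral arm, stood at 94.4, 99.7 and 78.1 CPM and 104, 138 and 122 CPM (0.42 ± 0.15). In both genes the AKOC libraries lay above every Quik-clot library, with AKOC replicate 2 the highest and AKOC replicate 1 nearest to Quik-clot. Of these, neither passed the adjustment over all genes (adjusted p = 0.295 for Ndufv2 and 0.359 for Ndufs1, edgeR).

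In the Q module, Ndufs8, which holds a pair of iron-sulfur clusters on the way to ubiquinone, stood at 35.2, 38.1 and 32.4 CPM and 45.5, 45.5 and 43.8 CPM (0.35 ± 0.10). It separated the dressings, with Quik-clot replicate 3 the lowest library. Ndufs3, a core subunit present from the first step of assembly, stood at 43.7, 45.6 and 39.5 CPM and 48.7, 51.3 and 46.8 CPM (0.19 ± 0.10). This separation was narrow and was absent in FPKM. Ndufs7, which binds the last cluster before ubiquinone, overlapped, at 29.7, 27.1 and 23.9 CPM and 28.1, 30.7 and 28.9 CPM (0.12 ± 0.12). Its AKOC replicates 1 and 3 lay below Quik-clot replicate 1.

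**Figure D2:**
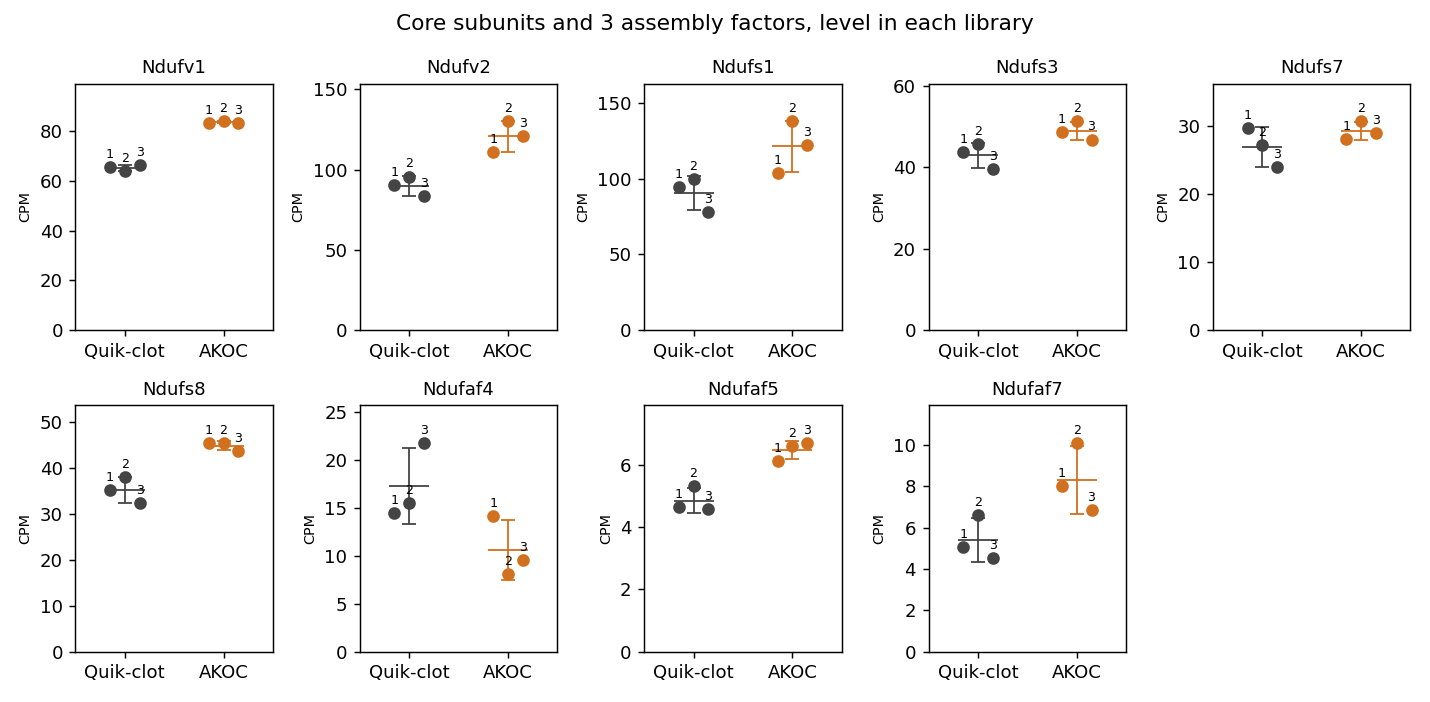
Level in CPM (y axis, starting at 0) of the core subunits Ndufv1, Ndufv2, Ndufs1, Ndufs3, Ndufs7 and Ndufs8 and of Ndufaf4, Ndufaf5 and Ndufaf7 in each Quik-clot (grey) and AKOC (orange) library, with replicate numbers above the points, the mean as a long dash and the SD as bars. Ndufv1 shows the tightest groups, near 65.2 and 83.6 CPM, Ndufs7 overlaps between the dressings, and Ndufaf4 is lower after AKOC.

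Promoter sequences are shown for 3 structural subunits and 2 assembly factors that hold a match to the YY1, ETS, NRF1 or E-box letters described next. RefSeq promoters (250 bases before to 50 after the gene start, on the gene's strand, GRCr8 build, which differs from the mRatBN7.2 build of the counts) were matched by gene ID for 42 of the 48 members, 34 of them structural. Capitals mark the letters of 5 motifs searched on both strands: CGCATGCG (NRF1), CCGGAAG (ETS factors such as GABP), AAGATGGC (YY1, whose letters hold an ATG and so can coincide with a start codon), AAGGTCA (oestrogen-related receptors) and CACGTG (E-box); no motif contains another. Ndufs8 has an ETS match, Ndufs7 and Ndufb8 each a YY1 match, and Ndufaf5 and Ndufaf4, which had opposite fold changes, each an NRF1 match.

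Ndufs8 (chr1:210573649-210573948, minus strand): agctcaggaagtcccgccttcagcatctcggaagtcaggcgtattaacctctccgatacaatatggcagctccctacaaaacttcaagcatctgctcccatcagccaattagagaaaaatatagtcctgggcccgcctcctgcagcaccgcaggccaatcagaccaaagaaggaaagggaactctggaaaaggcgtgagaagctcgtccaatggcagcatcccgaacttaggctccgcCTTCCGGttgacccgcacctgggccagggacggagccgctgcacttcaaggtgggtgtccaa
Ndufs7 (chr7:10110449-10110748, minus strand): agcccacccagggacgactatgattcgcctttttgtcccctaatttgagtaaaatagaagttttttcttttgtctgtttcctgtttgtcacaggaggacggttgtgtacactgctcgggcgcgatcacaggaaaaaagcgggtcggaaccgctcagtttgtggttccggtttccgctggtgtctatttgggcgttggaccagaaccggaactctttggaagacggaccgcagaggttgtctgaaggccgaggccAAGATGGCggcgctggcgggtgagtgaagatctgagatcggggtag
Ndufb8 (chr1:253362887-253363186, minus strand): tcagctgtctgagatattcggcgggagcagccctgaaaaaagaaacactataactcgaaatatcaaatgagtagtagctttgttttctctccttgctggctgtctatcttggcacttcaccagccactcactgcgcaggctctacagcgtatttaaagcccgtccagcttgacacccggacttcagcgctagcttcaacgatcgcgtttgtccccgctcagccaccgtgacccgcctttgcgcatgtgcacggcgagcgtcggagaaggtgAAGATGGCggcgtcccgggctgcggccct
Ndufaf5 (chr3:147961362-147961661, plus strand): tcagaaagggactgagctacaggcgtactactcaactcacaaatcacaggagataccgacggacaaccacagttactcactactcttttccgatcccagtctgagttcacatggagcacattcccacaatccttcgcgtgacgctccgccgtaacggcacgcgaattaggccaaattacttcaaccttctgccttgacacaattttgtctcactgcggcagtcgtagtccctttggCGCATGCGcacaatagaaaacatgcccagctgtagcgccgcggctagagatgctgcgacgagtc
Ndufaf4 (chr5:43401545-43401844, plus strand): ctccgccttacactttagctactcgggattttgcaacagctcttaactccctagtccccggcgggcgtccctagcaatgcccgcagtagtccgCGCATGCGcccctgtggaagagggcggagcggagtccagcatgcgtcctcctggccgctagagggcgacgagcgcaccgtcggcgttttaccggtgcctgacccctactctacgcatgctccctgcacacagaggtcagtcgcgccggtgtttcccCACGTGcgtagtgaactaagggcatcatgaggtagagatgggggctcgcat

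The YY1 letters occurred in 8 of 34 structural promoters (23.5%), against 4.82% of the 13042 promoters of genes tested and 3.17% of all 33469. These 8 were Ndufa2, Ndufa3, Ndufa6, Ndufa9, Ndufb8, Ndufs4, Ndufs7 and Ndufs6l1, whose fold changes ran from the lowest of the subunits (Ndufa6) to 0.35 (Ndufb8). In all 8 the letters lay after the gene start, beginning from 4 (Ndufs4 and Ndufs7) to 26 bases (Ndufa2) past it, and none lay before it. The ETS letters occurred in 7 of 34 (20.6%), against 15.9% of tested and 8.75% of all promoters, and the receptor letters in 4 (11.8%), against 3.27% and 4.61%. The NRF1 letters occurred in 1 structural promoter, that of Ndufa11, and in 2 of 7 Ndufaf promoters, against 3.11% of tested and 1.66% of all promoters. The E-box occurred in 2 structural promoters, of Ndufa7 and Ndufb3, and in that of Ndufaf4, against 8.84% and 6.42%. A match is a description of the letters and not a measured binding site.

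Among the 10 N-module subunits, 9 were positive and the median log2 fold change was 0.31. Ndufa12, an accessory subunit that takes the place of the assembly factor Ndufaf2 late in assembly, stood at 22.7, 29.5 and 22.2 CPM with Quik-clot against 29.1, 38.4 and 32.5 CPM with AKOC (0.43 ± 0.16). AKOC replicate 1 lay just under Quik-clot replicate 2, so the groups overlapped. At the other end was Ndufa6, an accessory subunit of the peripheral arm, at 77.4, 82.3 and 63.9 CPM and 74.2, 72.6 and 76.7 CPM (-0.001 ± 0.12). It was the sole structural subunit without a positive value, and its sign changed with the processing.

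Ndufs6, a zinc-binding N-module subunit, is counted in the row Ndufs6l1, because the gene ID of that row belongs to Ndufs6 in RefSeq. That row stood at 28.0, 34.1 and 29.8 CPM and 34.8, 38.6 and 32.5 CPM (0.20 ± 0.12). The row with the symbol Ndufs6 carries a gene ID that RefSeq lists as the pseudogene Ndufs6-ps1, and it held 2.26, 4.42 and 3.19 CPM and 2.49, 3.36 and 3.70 CPM (-0.05 ± 0.29). Reads of the 2 copies may have been split by the counting, so both values are uncertain. The other N-module accessory subunits, Ndufv3, Ndufa2, Ndufa7 and Ndufs4, had log2 fold changes from 0.10 (Ndufs4) to 0.38 (Ndufv3), all with overlapping groups.

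All 6 Q-module subunits were positive, with a median of 0.26. Beside the core subunits above, Ndufa9, an accessory subunit near the ubiquinone channel, stood at 67.4, 70.8 and 59.9 CPM with Quik-clot against 74.6, 88.4 and 85.0 CPM with AKOC (0.32 ± 0.11). The groups did not overlap, and Quik-clot replicate 3 was lowest. Ndufa5, which joins the Q module early, overlapped (0.11 ± 0.12).

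All 9 subunits of the proximal membrane module were positive, with a median of 0.27. Ndufa10, an accessory subunit of the matrix side, had the highest fold change of the structural subunits, with 61.3, 53.7 and 50.9 CPM with Quik-clot against 70.6, 74.6 and 82.1 CPM with AKOC (0.45 ± 0.11, unadjusted p = 0.00518, adjusted p = 0.295 in edgeR). Ndufs5, a small cysteine-rich subunit of the intermembrane space, stood at 39.1, 46.8 and 38.5 CPM and 53.9, 51.7 and 52.4 CPM (0.35 ± 0.11). These 2 separated the dressings in CPM, where the AKOC libraries of Ndufs5 lay close together. In FPKM both overlapped, and Ndufs5 stood at 65.0, 74.1 and 51.5 with Quik-clot and 86.1, 69.3 and 73.8 with AKOC. Ndufa11, a membrane subunit, stood at 68.6, 79.8 and 61.2 CPM and 79.0, 88.0 and 85.7 CPM (0.27 ± 0.12), with AKOC replicate 1 just under Quik-clot replicate 2. The remaining Ndufa1, Ndufa3, Ndufa8, Ndufa13, Ndufc1 and Ndufc2 overlapped and ranged from 0.14 (Ndufc2) to 0.32 (Ndufc1).

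All 12 subunits of the distal membrane module were positive but the median was lower, 0.22. Ndufb8 stood at 56.6, 66.4 and 49.6 CPM with Quik-clot against 72.4, 73.4 and 74.3 CPM with AKOC (0.35 ± 0.13), with all AKOC libraries close together. Ndufab1, the mitochondrial acyl carrier protein, which serves fatty acid synthesis and iron-sulfur assembly as well as complex I, stood at 45.3, 52.2 and 44.5 CPM and 53.5, 58.5 and 58.5 CPM (0.26 ± 0.11). Ndufb4 stood at 42.9, 42.2 and 37.7 CPM and 47.5, 46.0 and 51.0 CPM (0.24 ± 0.10), though similar copies of this gene are in the table under other symbols. These 3 and Ndufb2 were the distal subunits that separated the dressings in CPM. In FPKM all of them overlapped, and the AKOC libraries of Ndufb8 ran from 99.1 to 116. The other 8, Ndufb1, Ndufb3, Ndufb5, Ndufb6, Ndufb7, Ndufb9, Ndufb10 and Ndufb11, ranged from 0.12 (Ndufb7) to 0.28 (Ndufb1).

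**Figure D3:**
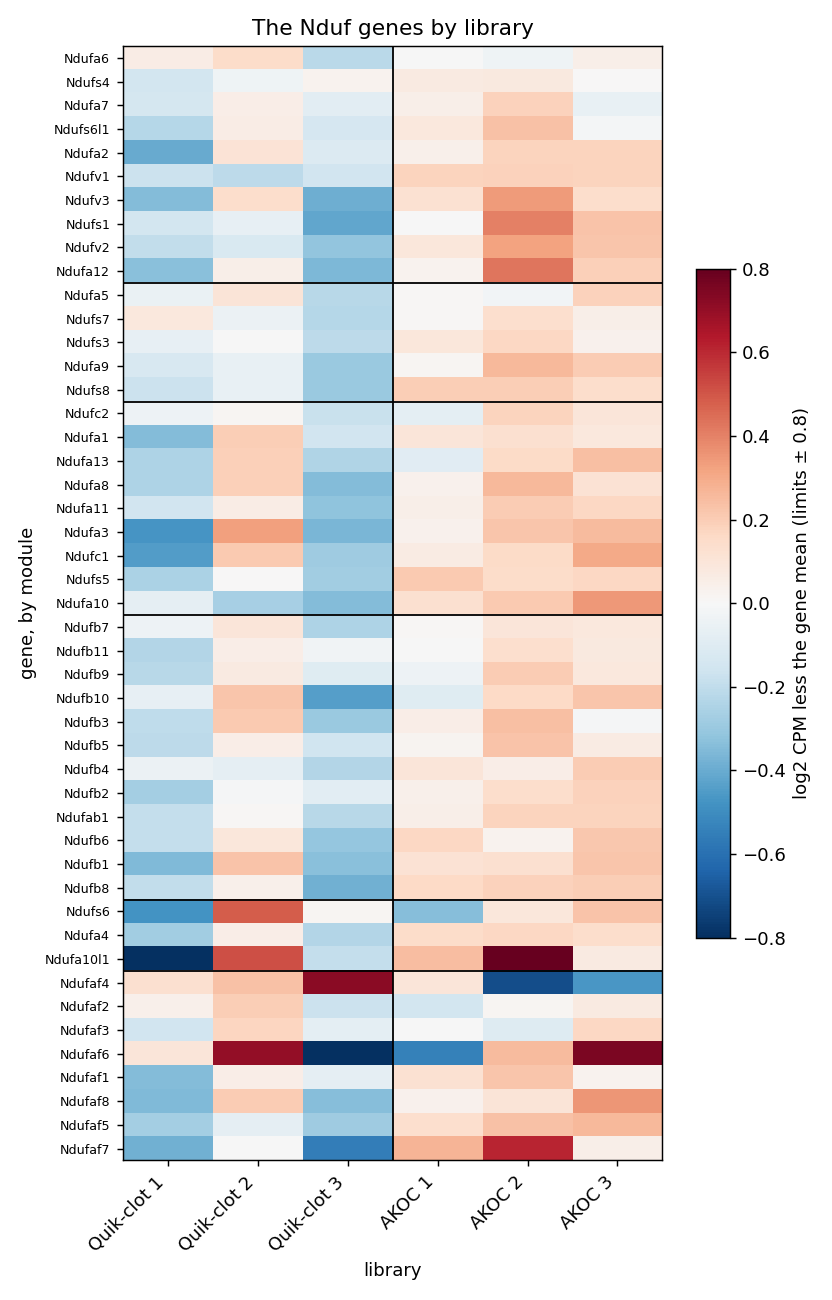
Log2 CPM of each Nduf gene shown by name (y axis, grouped by module with lines between groups, in the order N, Q, proximal membrane, distal membrane, other rows and Ndufaf) less its mean over the libraries, in each library (x axis); red is above and blue below the mean, and values beyond ± 0.8 take the colour of the limit. Quik-clot replicates 1 and 3 are blue for nearly all structural subunits, whereas Quik-clot replicate 2 is red for many accessory subunits and blue for most core subunits.

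The subunits varied together across libraries. The median correlation of log2 CPM between 2 structural subunits was 0.77 over the 6 libraries (666 pairs, 99.1% of them positive), values that share the libraries and their scaling. The median subunit, as log2 CPM less the gene's mean, stood at -0.19, 0.05 and -0.25 in Quik-clot replicates 1, 2 and 3 and at 0.05, 0.18 and 0.17 in the AKOC libraries. At more digits, Quik-clot replicate 2 (0.052) lay above AKOC replicate 1 (0.048), so the groups overlapped by this measure. For the core subunits alone the medians were -0.14, -0.07 and -0.30 after Quik-clot and 0.09, 0.19 and 0.16 after AKOC, without overlap. In 32 of 37 subunits all AKOC libraries lay above Quik-clot replicates 1 and 3, and in 31 of 37 Quik-clot replicate 2 was the highest library of its group. Neither count was made over all genes, so neither can be set against a general share. Quik-clot replicate 2 was the highest of all 6 libraries for Ndufa1, Ndufa3, Ndufa6, Ndufb1 and Ndufb10. Without it, 24 of 37 subunits were higher at an unadjusted p under 0.05, against 9.8% of all genes in that fit, and 0 were called after adjustment.

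Quik-clot replicate 2 also stood apart in immune markers. The 8 T and NK cell markers summed to 41.2 CPM there, against 14.9 and 15.3 CPM in the other Quik-clot libraries and 10.7 to 13.96 CPM after AKOC, and all 8 were negative (median log2 fold change -1.01). Of 8 macrophage markers 7 were negative (median -0.28), and their sum ran from 689 to 1064 CPM after Quik-clot and from 561 to 832 CPM after AKOC. Hepatocyte markers were negative in 5 of 8 (median -0.16), with sums of 107915 to 167611 CPM and 123520 to 183659 CPM. Of 8 endothelial markers 7 were negative (-0.21), of 8 stellate and fibroblast markers 5 were positive (0.25), of 3 bile duct markers tested 2 were negative (-0.32) and of 4 red cell markers 3 were positive (0.76). The red cell markers summed to 7.07, 6.58 and 23.9 CPM with Quik-clot against 29.5, 14.3 and 15.5 CPM with AKOC. No member of these lists passed the adjustment over all genes, and the part of any cell type in the complex I values was not tested.

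**Figure D4:**
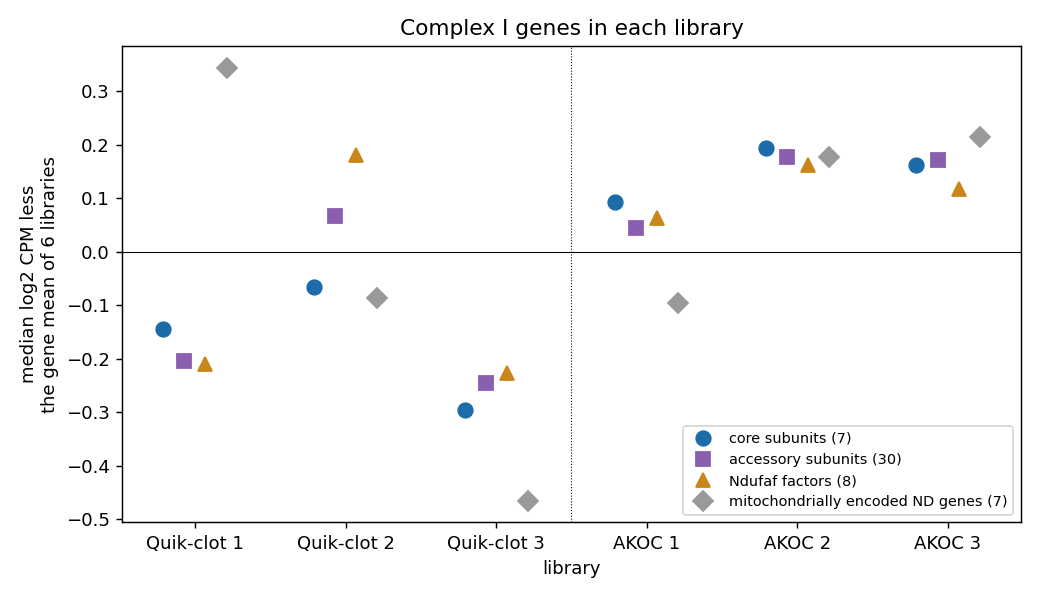
Median log2 CPM less each gene's mean over the libraries (y axis) in each library (x axis) for the 7 core subunits, 30 accessory subunits, 8 Ndufaf factors and 7 mitochondrially encoded ND genes. Core subunits separate the dressings, the accessory subunits of Quik-clot replicate 2 lie among the AKOC libraries, its Ndufaf median is the highest of all (0.18), and the ND genes are highest in Quik-clot replicate 1 (0.34) and lowest in Quik-clot replicate 3 (-0.47).

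Most Nduf transcripts are short, and the fold change of genes in general varied with transcript length. The length implied by the deposited FPKM (fragments per kilobase of transcript and library total) was 675 bases in the median structural subunit and 3261.5 bases in the median gene tested, and 26 of 37 subunits were under 1000 bases. Among all genes the median log2 fold change went from 0.12 in transcripts up to 500 bases and 0.08 from 500 to 750 bases to -0.07 above 5000 bases. The structural subunits in those first 2 ranges had medians of 0.22 (6 subunits) and 0.24 (15 subunits). Less the median of all genes of like length, the structural median was 0.17 in place of 0.25, the core median 0.34 and the Ndufaf median 0.17. Within the subunits longer transcripts had the higher fold changes (Spearman's rho 0.33 over 37 genes, against -0.11 over all genes tested). The excess of Quik-clot replicate 2 over the other Quik-clot libraries was greater in shorter subunits (rho -0.47, against -0.12 over all genes). These correlations are across genes that share the same libraries and are not independent.

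**Figure D5:**
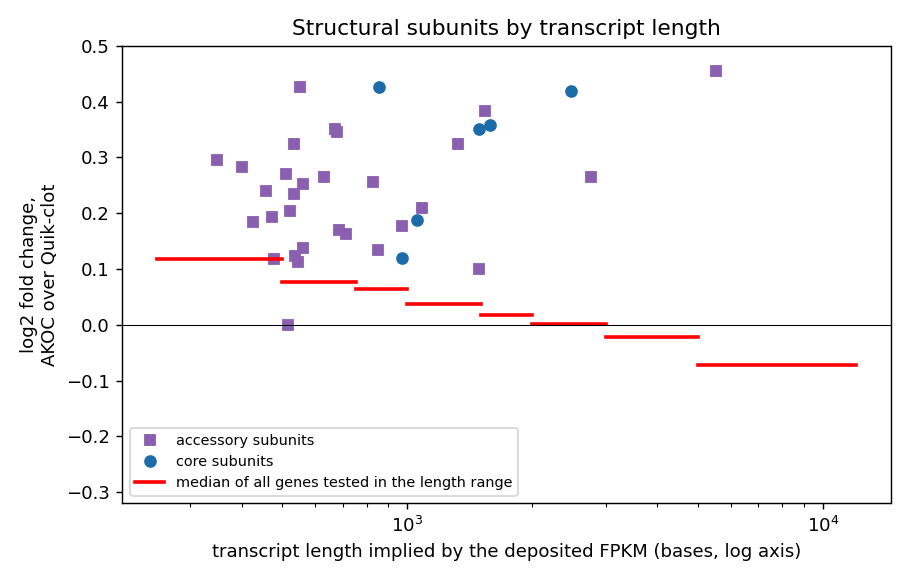
Log2 fold change (y axis, AKOC over Quik-clot) of the structural subunits reported individually against transcript length in bases (x axis, log scale), with core subunits as circles, accessory subunits as squares and the median of all genes tested in each range of length as red lines. The red lines descend from 0.12 to -0.07 with length. Of the core subunits shown, Ndufs1 and Ndufv1 lie far above them, whereas Ndufs7 lies 0.056 above the line of its range.

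Per transcript length, structural subunits spanned a wide range of levels. The mean FPKM over all 6 libraries was highest for Ndufb9 (163), Ndufa11 (151), Ndufa6 (145) and Ndufv2 (123). It was lowest for Ndufa10 (11.9), whose transcript is 5529 bases long, then for Ndufab1 (18.8), Ndufs4 (23.9) and Ndufs8 (27.0). The Ndufaf factors lay under every structural subunit, from 2.67 FPKM (Ndufaf7) to 11.5 FPKM (Ndufaf8).

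Assembly factors did not share one direction. Of the 8 Ndufaf genes, 6 had positive and 2 negative log2 fold changes, with a median of 0.21, and 0 passed the adjustment over all genes (lowest adjusted p = 0.356, edgeR). At an unadjusted p under 0.05, 2 were higher and 1 lower, against 6.78% and 5.69% of all genes. Levels lay wholly above for 2 and wholly below for 1, against 9.53% and 8.84% of all genes. The count higher was 0 with Quik-clot replicate 1, Quik-clot replicate 3 or AKOC replicate 2 left out. The shares of all genes in those fits were 5.16%, 5.27% and 4.78% in that order. The count was 1 with AKOC replicate 3 left out, against 4.52% of all genes, and 3 with Quik-clot replicate 2 left out, against 9.8%. The median was 0.41 with Quik-clot replicate 2 left out, 0.11 with Quik-clot replicate 3 and 0.09 with AKOC replicate 3 left out. Whether the Ndufaf factors differed from the structural subunits was not tested.

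Ndufaf4, which works with Ndufaf3 on the early Q module, had the opposite sign to the subunits. It stood at 14.4, 15.5 and 21.7 CPM in Quik-clot replicates 1, 2 and 3 and at 14.1, 8.06 and 9.54 CPM in AKOC replicates 1, 2 and 3 (17.2 ± 3.95 against 10.6 ± 3.14 CPM, mean ± SD, n = 3 each). The groups barely separated, since AKOC replicate 1 lay just under Quik-clot replicate 1. Its log2 fold change of -0.70 ± 0.25 had an unadjusted p of 0.0247 and an adjusted p of 0.361 in edgeR. The value ran from -0.97 (AKOC replicate 1 left out) to -0.50 (Quik-clot replicate 3 left out), and no alternative changed its sign. Its unadjusted p went above the threshold when Quik-clot replicate 3 was left out, and likewise for AKOC replicates 2 and 3 in turn. Of the 5 printed promoters, that of Ndufaf4 is the one that holds both an NRF1 and an E-box match.

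Ndufaf7, a mitochondrial methyltransferase, stood at 5.07, 6.60 and 4.51 CPM with Quik-clot against 7.99, 10.1 and 6.83 CPM with AKOC (0.62 ± 0.21). Ndufaf5, which hydroxylates an arginine of Ndufs7, stood at 4.63, 5.32 and 4.59 CPM and 6.13, 6.59 and 6.70 CPM (0.42 ± 0.15). In both, every AKOC library lay above every Quik-clot library in CPM, narrowly in Ndufaf7. In FPKM Ndufaf5 stayed apart, but Ndufaf7 overlapped, with Quik-clot replicate 2 (2.76) above AKOC replicate 3 (2.54).

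The remaining factors overlapped. Ndufaf1, a member of the assembly complex for the membrane arm, stood at 13.2, 17.5 and 16.0 CPM and 18.2, 19.6 and 17.1 CPM (0.23 ± 0.14). Ndufaf8, the partner of Ndufaf5, stood at 4.02, 5.91 and 4.05 CPM and 5.25, 5.52 and 6.57 CPM (0.31 ± 0.21). In both, Quik-clot replicate 2 lay among the AKOC libraries.

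Ndufaf2, the late factor replaced by Ndufa12, stood at 5.96, 6.62 and 5.13 CPM and 5.23, 5.84 and 6.07 CPM (-0.05 ± 0.16). Ndufaf3, a partner of Ndufaf4, stood at 9.09, 11.4 and 9.59 CPM and 10.1, 9.42 and 11.3 CPM (0.04 ± 0.15). Neither showed a difference beyond its spread, and both changed sign under some alternatives. Ndufaf6, an early factor related to phytoene synthases, varied most within groups, from 1.78 to 6.99 CPM after Quik-clot and from 2.94 to 7.22 CPM after AKOC (0.19 ± 0.51).

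Assembly factors with other names were mostly positive as well. Of 11 tested from a list of 12, 9 were positive, with a median log2 fold change of 0.23, 4 were higher and 0 lower at an unadjusted p under 0.05 (6.78% and 5.69% of all genes), and 0 passed the adjustment. Tmem70, which serves complexes I and V, stood at 24.1, 34.2 and 22.8 CPM with Quik-clot against 38.6, 42.8 and 44.8 CPM with AKOC (0.64 ± 0.17). Aifm1, whose product supports import of respiratory chain proteins, stood at 63.6, 75.6 and 58.2 CPM and 82.9, 106 and 95.2 CPM (0.52 ± 0.14). Nubpl, which delivers iron-sulfur clusters to complex I, stood at 4.11, 5.34 and 4.16 CPM and 5.77, 7.82 and 6.88 CPM (0.59 ± 0.19). All 3 separated the dressings.

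The other Nduf rows belong to neither class. Ndufa4, now regarded as a subunit of complex IV, stood at 139, 174 and 143 CPM with Quik-clot against 186, 188 and 185 CPM with AKOC (0.30 ± 0.12). In CPM its AKOC libraries lay close together and above all others. In FPKM the groups overlapped, at 198, 237 and 164 with Quik-clot and 255, 217 and 224 with AKOC. Ndufa10l1, a copy of Ndufa10 whose RefSeq gene is as long as its transcript (1434 bases), ranged from 3.65 to 17.6 CPM after Quik-clot and from 12.9 to 26.6 CPM after AKOC (0.75 ± 0.53), an SE above that of every structural subunit. Reads may have been split between the copy and Ndufa10.

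The 7 mitochondrially encoded subunits showed another pattern. Of ND1, ND2, ND3, ND4, ND4L, ND5 and ND6, 5 were positive, with a median log2 fold change of 0.11, 0 reached an unadjusted p under 0.05 in either direction and 0 passed the adjustment (lowest adjusted p = 0.752). ND2, with the smallest p, stood at 6123, 4718 and 3401 CPM with Quik-clot against 5366, 5993 and 6188 CPM with AKOC (0.30 ± 0.37). ND1 stood at 6309, 5287 and 3848 CPM and 5199, 6266 and 6037 CPM (0.18 ± 0.36). In both, the groups overlapped, with Quik-clot replicate 3 lowest. Quik-clot replicate 1 had the highest sum of ND genes (30083 CPM) but a sum of nuclear structural subunits (1792 CPM) below every library except Quik-clot replicate 3, and the latter library had the lowest of both (18090 and 1698 CPM). The sums in the AKOC libraries were 23116, 27334 and 28783 CPM for ND genes and 2106, 2326 and 2247 CPM for nuclear subunits.

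Nuclear genes of the other respiratory complexes had the same direction. Positive were 4 of 4 complex II genes (median log2 fold change 0.32), 9 of 9 of complex III (0.27), 10 of 10 of complex IV (0.21) and 15 of 15 of complex V (0.27). Less the median of all genes of like length, these medians were 0.30, 0.23, 0.09 and 0.20 in that order, against 0.17 for the structural subunits of complex I. At an unadjusted p under 0.05, 4, 4, 1 and 7 of them were higher, against 6.78% of all genes, and 0 were lower, against 5.69%. The complex IV count, 1 of 10, is near the share over all genes, and 0 genes of these complexes passed the adjustment. Complex I thus shared its direction with the other complexes. Sdhb of complex II had 0.45 ± 0.13, Uqcrc1 of complex III 0.45 ± 0.10, Cox5a of complex IV 0.33 ± 0.12 and Atp5po of complex V 0.43 ± 0.11, each without overlap between the dressings. Outer membrane and other markers of mitochondrial mass were positive in 4 of 10 (median -0.07). The positive ones were Hspd1 (0.29), Phb1 (0.27), Cs (0.18) and Vdac1 (0.07). The 6 negative ones, Vdac2, Vdac3, Tomm20, Tomm22, Tomm40 and Phb2, ranged from -0.21 (Tomm40) to -0.03 (Phb2).

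Regulators of mitochondrial biogenesis differed among themselves. Of 11 tested from a list of 12, 8 were negative, with a median of -0.21, 3 were lower and 0 higher at an unadjusted p under 0.05 (5.69% and 6.78% of all genes), and 0 passed the adjustment. Tfam, Tfb1m and Tfb2m were positive, and Gabpa (-0.03) and Gabpb1 (-0.02) lay near 0. Yy1 (-0.21), Esrra (-0.23) and Ppargc1a (-0.56) were negative. Pprc1, which encodes a coactivator of the PGC-1 family, stood at 8.70, 7.38 and 9.16 CPM with Quik-clot against 6.35, 4.40 and 3.68 CPM with AKOC (-0.80 ± 0.23). Nrf1 stood at 7.96, 6.64 and 7.37 CPM and 5.09, 5.23 and 5.60 CPM (-0.46 ± 0.14). It encodes a factor whose letters were searched in the promoters, as do Gabpa, Yy1 and Esrra. Ppargc1b, of the same coactivator family as Pprc1, stood at 2.46, 3.23 and 1.57 CPM and 1.21, 1.36 and 1.38 CPM (-0.88 ± 0.30). In 4 of the 11, Pprc1, Nrf1, Ppargc1b and Yy1, every AKOC library lay below every Quik-clot library, against 8.84% of all genes. The reverse held in 0, against 9.53% of all genes. Less the median of all genes of like length, the median of the list was -0.14 in place of -0.21. Tfam, which encodes the packaging and transcription factor of mitochondrial DNA, had 0.20 ± 0.11.

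With library totals in place of the trimmed mean scaling, 0 of 37 subunits had an unadjusted p under 0.05 on the higher side, against 3.26% of all genes, and the structural median was 0.16 while that of all genes was -0.09. The number of subunits at an unadjusted p under 0.05 was 6 when Quik-clot replicate 3 was left out, and 6 again for AKOC replicate 2 and for AKOC replicate 3. The share of all genes that were higher in those fits was 5.27%, 4.78% and 4.52% in that order, and it was 5.16% with Quik-clot replicate 1 left out.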

How the data were processed

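RNA-seq counts from 3 AKOC and 3 Quik-clot liver samples were used. The authors deposited whole-number counts per gene without normalization and a table of FPKM for the same genes, both named in the file headers by library codes that match the labels. Per the submitters' processing notes, fastp, HISAT2, HTSeq and the build mRatBN7.2 were used; tool versions, the annotation and whether counting used strand are not given in these sources. Dividing the counts by a fixed length per gene and by the library total gave back the deposited FPKM, with a largest relative error of 8.58e-07, which gave transcript lengths.

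All 13872 genes passing filterByExpr (minimum count 10, minimum total 15) were fitted with the edgeR 4.0.16 quasi-likelihood F test (R 4.3.3; trimmed mean of M values; dressing only; legacy method off), two-sided, with Benjamini-Hochberg adjustment over all genes tested and a threshold of 0.05. The SE is the fold change over the root of F. Log2 CPM used a prior count of 2. DESeq2 1.42.0, limma 3.58.1 on voom values or on log2 FPKM plus 1 or 0.1, other scalings, no filter, the replicate block and leaving out each library were alternatives. The legacy method, the length comparison, the look at overlap in FPKM and the other handling of Ndufs6, Ndufa4 and Ndufa10l1 were chosen after seeing the data. Simulated counts with known changes were used to check the fits. With 3 libraries a side, the smallest two-sided p of an exact permutation test is 0.1.

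Members and lists were chosen with earlier results of these data known. Values per library are given for the core subunits, Ndufaf factors, Ndufab1, Ndufa4, the 3 subunits of smallest p in each module, the extremes and members below 0, apart from 1 member that is counted but not reported here; of other lists up to 3 genes of smallest p are named. Ndufs6l1, Ndufs6, Ndufa10l1, Ndufa12, the named markers of mitochondrial mass and cell marker sums were chosen after their values were seen. So were Tfam, Tfb1m, Tfb2m, Gabpa, Gabpb1, Yy1, Esrra and Ppargc1a.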

Additional observations from a re-analysis of the deposited data

How the results depend on the processing

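Every alternative run kept the structural median log2 fold change above 0 (0.16 with library totals, 0.18 to 0.35 when a library was left out) and 36 or 37 of the 37 subunits positive; with the row Ndufs6 in place of Ndufs6l1 there were 35, and with Ndufa4, Ndufa10l1 and the row Ndufs6 added 38 of 40. At an adjusted p under 0.05 there were 0 subunits in edgeR with any library left out and 1 with DESeq2. At an unadjusted p under 0.05 on the higher side there were 11 subunits in the reported fit, beside 941 of 13872 genes. There were 0 with library totals only (452 of all genes), 0 with log2(FPKM + 1) (467) and 0 with log2(FPKM + 0.1) (490). Median-of-ratios scaling gave 12 (936), limma-voom 15 (1079) and no filter 12 (1157 of 20104 genes). With a library left out there were 6 to 24, beside 641 to 1387 of all genes. For the Ndufaf factors the count higher was 2, with 0 under library totals and both FPKM fits, 1 with the replicate block and 0 to 3 with a library left out. The Ndufaf count lower was 1, beside 790 of 13872 genes, and 0 to 1 when a library was left out, beside 439 to 1073 of all genes. The Ndufaf median ran from 0.088 to 0.41 with a library left out. Same-numbered samples did not deviate together (r = -0.07, -0.08 and -0.20), so the replicate block rests on shared numbers only. With it 10 subunits were higher at an unadjusted p under 0.05, beside 766 of 13872 genes. Values near 0 changed sign and none was called. Ndufa6 was 0.0041 with no filter, 0.025 with limma-voom, 0.0068 with the replicate block and -0.100 to 0.075 with a library left out. Ndufaf3 was -0.041 with library totals, -0.032 and -0.036 in the FPKM fits and -0.037 to 0.14 with a library left out. The row Ndufs6 was 0.061 with limma-voom and -0.26 to 0.23 with a library left out. With a library left out Ndufaf2 ran from -0.14 to 0.042 and Ndufaf6 from -0.19 to 0.67. Samples of one dressing differed by far more than counting error (chi-square per gene 142 to 400), and 3 libraries per dressing limit every test.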
